A study of Mus musculus with 12 samples.

Results

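Peaks at the end of 1 gene made up 4752 of the 46669 peaks called in 6 libraries of DNA recovered with an antibody against MACF1. Each of these members was shorter than 3000 bp, lay on chromosomes 1 to 19 and had its summit, the base with the deepest read pile-up, within 1 kb of an end of exactly 1 protein-coding gene. Gene ends came from the RefSeq annotation of the mouse genome GRCm38, and the rule used the position and width of a peak but neither its reads, its enrichment nor its library. All cells were MC3T3-E1, an osteoblast line from mouse skull bone, which is 1 line and stands for no other osteoblast. Chromatin immunoprecipitates came from cells with MACF1 knockdown (libraries knockdown 1, knockdown 2 and knockdown size3) and from control cells (control 1, control 2 and control size3), and each had its own input library, so 12 samples formed 4 groups of 3. Both groups shared the line and the antibody. The labels list several lots of that antibody without saying which library used which. How MACF1 was knocked down, how far it fell and what size3 means are not given in the sources used here. Nothing in the labels says that the libraries of a group were separate cultures, so the p-values measure only the spread between these libraries, which may be technical.

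MACF1 is a very large cytoskeletal linker that binds actin filaments and microtubules and takes part in Wnt signalling. The start of a gene carries its promoter, where RNA polymerase II and its helper factors assemble. Many mouse promoters lie in CpG islands, stretches rich in the dinucleotide CG, and this holds for most broadly used genes and for many regulators of development, while genes such as those of olfactory receptors mostly start in CG-poor DNA. The far end of a gene, where transcription stops, seldom carries such an island.

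Only 9 genes had members in 3 libraries and none had more. The promoters of 4 of these are printed because recurrent members lay on or beside them, with a summit within 300 bp in at least 1 library. Each runs from 250 bases before to 50 bases after a start in the RefSeq promoter table (GRCm38.p6), 5′ to 3′ on the strand of the gene, and capitals mark GC boxes (GGGCGG or its complement CCGCCC). The Map1a promoter is chr2:121289352-121289651 on the plus strand, that of Fkbp9 is chr6:56831809-56832108 on the plus strand, that of Hipk3 is chr2:104494440-104494739 on the minus strand and that of Ccdc136 is chr6:29396325-29396624 on the plus strand.
Map1a: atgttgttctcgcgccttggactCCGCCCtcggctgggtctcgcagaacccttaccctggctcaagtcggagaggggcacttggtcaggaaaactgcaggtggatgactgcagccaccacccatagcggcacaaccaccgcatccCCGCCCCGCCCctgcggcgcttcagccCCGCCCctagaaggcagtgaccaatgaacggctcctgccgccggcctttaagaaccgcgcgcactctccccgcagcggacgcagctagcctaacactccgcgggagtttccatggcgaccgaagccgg
Fkbp9: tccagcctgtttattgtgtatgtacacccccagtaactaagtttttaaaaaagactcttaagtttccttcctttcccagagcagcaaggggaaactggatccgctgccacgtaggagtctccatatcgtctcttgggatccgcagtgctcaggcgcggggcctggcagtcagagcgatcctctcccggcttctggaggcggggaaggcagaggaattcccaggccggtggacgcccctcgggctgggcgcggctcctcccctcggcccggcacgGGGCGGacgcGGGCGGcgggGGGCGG
Hipk3: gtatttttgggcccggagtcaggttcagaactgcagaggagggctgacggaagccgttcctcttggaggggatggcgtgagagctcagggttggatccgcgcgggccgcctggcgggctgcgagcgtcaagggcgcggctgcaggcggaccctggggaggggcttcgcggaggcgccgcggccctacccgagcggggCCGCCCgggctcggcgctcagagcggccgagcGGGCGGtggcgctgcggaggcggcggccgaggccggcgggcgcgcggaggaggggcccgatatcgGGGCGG
Ccdc136: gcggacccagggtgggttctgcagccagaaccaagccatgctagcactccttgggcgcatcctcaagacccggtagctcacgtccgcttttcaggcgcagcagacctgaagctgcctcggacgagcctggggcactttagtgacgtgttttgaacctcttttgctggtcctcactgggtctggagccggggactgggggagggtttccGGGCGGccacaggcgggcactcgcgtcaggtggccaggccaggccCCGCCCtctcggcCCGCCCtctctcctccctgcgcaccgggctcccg
Distances of summits were counted from the end of the gene span, which lay 12 bp before the table's start in Map1a, 1 bp before it in Ccdc136 and at it in Fkbp9 and Hipk3. These 300 bases held 4 GC boxes and 27 CG dinucleotides in Map1a, 3 and 23 in Fkbp9, 3 and 42 in Hipk3, and 3 and 21 in Ccdc136. The G and C content was 65.7% in Map1a, 63% in Fkbp9, 76% in Hipk3 and 67.3% in Ccdc136, against a median of 56.7% over the promoters of 16457 genes. A match to a motif describes the letters and does not show that a factor bound there.

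Members were found mostly in 2 of the knockdown libraries. The peak lists held 2583 members in knockdown 1, 67 in knockdown 2 and 1969 in knockdown size3, against 21 in control 1, 0 in control 2 and 112 in control size3. Both knockdown 1 and knockdown size3 stood far above the rest, while knockdown 2 lay between the control libraries, so the groups overlapped. The mean was 1539.7 ± 1312 members in knockdown and 44.3 ± 59.5 in control libraries (SD, n = 3 each). The difference in log2(number + 1) was 5.70, with p = 0.200 in a two-sided exact permutation test over 20 assignments of the libraries, which can give no p below 0.1 (adjusted p = 0.400 over the 3 comparisons between groups). Within the same label, knockdown 1 had 123 times the members of control 1 and knockdown size3 had 17.6 times those of control size3.

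The length of a list and the part of it that lay at gene ends both differed between libraries. Members were 12.2% of the autosomal peaks of knockdown 1 (95% Wilson interval 11.8 to 12.7), 1.52% in knockdown 2 (1.20 to 1.93) and 11.2% in knockdown size3 (10.8 to 11.7). They were 2.84% in control 1 (1.87 to 4.31), 0% of 160 peaks in control 2, where 3 counts of the total, the limit taken for a count of 0, allow up to 1.88% and the Wilson interval up to 2.34%, and 5.10% in control size3 (4.26 to 6.10). The windows that could hold a member cover 2.84% of the DNA between the first and the last gene of each chromosome. The shares in knockdown 1, knockdown size3 and control size3 lay above that figure, control 1 equalled it, and knockdown 2 lay below it. The mean share was 8.33 ± 5.91% in knockdown and 2.65 ± 2.56% in control libraries (SD, n = 3 each), a difference of 5.68 percentage points (two-sided exact permutation test, p = 0.300, adjusted p = 0.400). That difference was 3.74 points without knockdown 1 and 9.08 points without knockdown 2.

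Read depth and duplicates differed between the libraries too. After duplicate removal 18454330 reads were left in knockdown 1, 5575205 in knockdown 2 and 8175173 in knockdown size3, against 26196138 in control 1, 33085606 in control 2 and 10698067 in control size3. The share of reads removed as redundant was 0.51 in knockdown 1, 0.65 in knockdown 2 and 0.02 in knockdown size3, against 0.25 in control 1, 0.16 in control 2 and 0.01 in control size3. The deepest library, control 2, had no member, and knockdown size3 had 1969 with fewer reads than any control library. Knockdown 2 had the fewest reads and 67 members. Per 1000000 reads, members numbered 140.0 in knockdown 1, 12 in knockdown 2 and 241 in knockdown size3, against 0.802 in control 1, 0 in control 2 and 10.5 in control size3. On this scale, chosen after the data were seen, the groups did not overlap (log2 difference 6.85, two-sided exact permutation test, p = 0.100, the smallest possible). The part of read depth, of the input, of the redundant reads and of the antibody lot in these numbers was not tested.

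**Figure D1:**
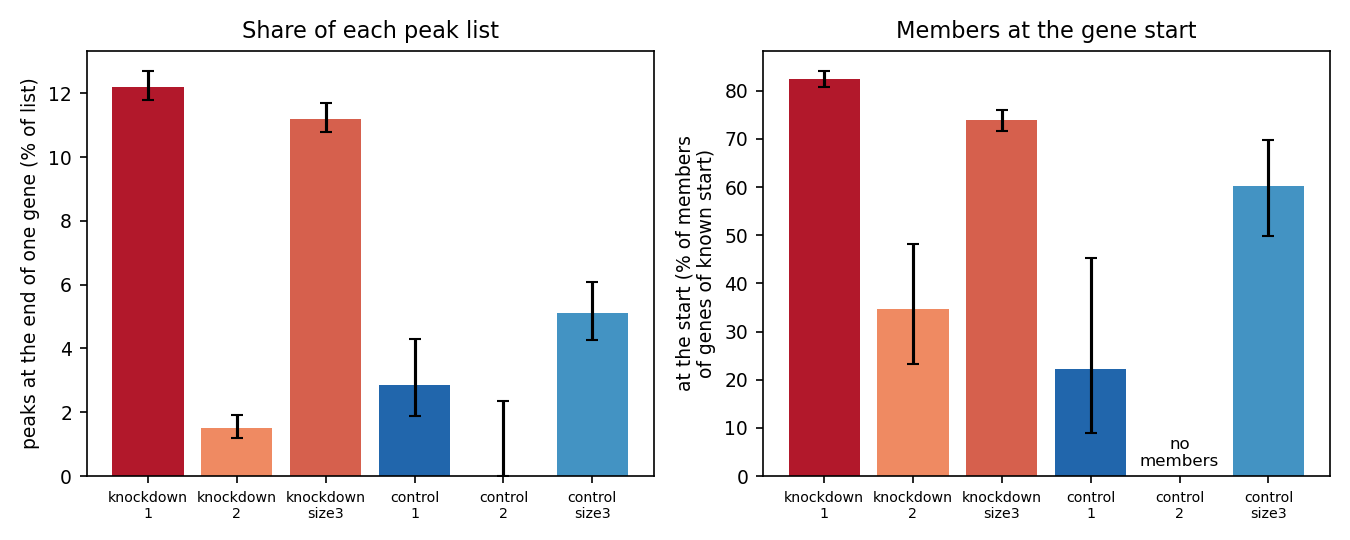
Left, members as a percent of the peaks on chromosomes 1 to 19 in each of the 6 lists; right, members at the gene start as a percent of members whose gene has a known start. Bars are single libraries, knockdown in red and control in blue, with 95% Wilson intervals; knockdown 1 and knockdown size3 reach 12.2% and 11.2% on the left, and control 2 has no member.

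The genes behind these peaks were many. Knockdown 1 had a member at 2516 of 20665 protein-coding genes (12.2%), knockdown 2 at 67 (0.324%) and knockdown size3 at 1895 (9.17%). Control 1 had one at 21 genes (0.102%), control 2 at 0 (0%) and control size3 at 112 (0.542%). Over all lists 4125 genes had a member, of which 3648 had it in 1 library, 468 in 2 and 9 in 3. Members held 1.39% of the reads of knockdown 1, 0.0128% of knockdown 2 and 0.637% of knockdown size3, against 0.00241% of control 1 and 0.0183% of control size3. Nearly all reads of every library thus lay elsewhere.

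Members were spread unequally over the 2 ends of genes. The strand, and with it which end is the start, was known for 16457 of the 20665 genes, and 3728 members lay at such a gene. The nearest start in the promoter table lay within 100 bp of that end for 12679 of these genes and over 1 kb away for 1646. In knockdown 1 the start held 1665 of 2018 such members (82.5%, Wilson interval 80.8 to 84.1), and in knockdown size3 it held 1148 of 1552 (74.0%, 71.7 to 76.1). In knockdown 2 it held 18 of 52 (34.6%, 23.2 to 48.2). Among the controls, the start held 4 of 18 in control 1 (22.2%, 9 to 45.2) and 53 of 88 in control size3 (60.2%, 49.8 to 69.8). The share lay above 50% in knockdown 1, knockdown size3 and control size3, whose interval reaches just below 50%, and below it in knockdown 2 and control 1. The knockdown mean exceeded the control mean by 22.47 points, with p = 0.400 in a two-sided exact permutation test over the 5 libraries with members. Without knockdown 2 the difference was 37.0 points and without knockdown 1 it was 13.1. As a share of genes of known start, 10.1% had a member at the start in knockdown 1, 0.109% in knockdown 2 and 6.86% in knockdown size3, against 0.0243% in control 1 and 0.322% in control size3.

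Summits gathered just inside the gene start. Counted from the start, with positive values inside the gene, the median summit lay at 224 bp in knockdown 1 (quartiles 34 and 473) and at 201 bp in knockdown size3 (quartiles -24.2 and 462). In control size3 it lay at 33 bp (quartiles -438 and 403), and in knockdown 2 at -703 bp, outside the gene. The first 400 bp inside the gene held 48.0% of the start members of knockdown 1 and 43.2% of those of knockdown size3, against 24.5% in control size3. The outermost 600 bp before the start held 4.50% in knockdown 1, 72.2% of only 18 in knockdown 2 and 8.54% in knockdown size3, against 30.2% in control size3. At the far end few summits lay at the end itself. In knockdown 1 the 200 bp on either side of it held 3.40% each, and each 200 bp from 200 to 1000 bp inside held 14.4% to 18.4%. In knockdown size3 these shares were 4.46% outside, 5.94% inside and 11.6% to 17.3% farther inside. The 400 bp just inside the far end held 19% of far-end members in knockdown 1 and 17.6% in knockdown size3. A start of the same gene in the RefSeq promoter table lay within 500 bp of 78.4% of the start members of knockdown 1, 71.7% of those of knockdown size3 and 60.4% of those of control size3.

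**Figure D2:**
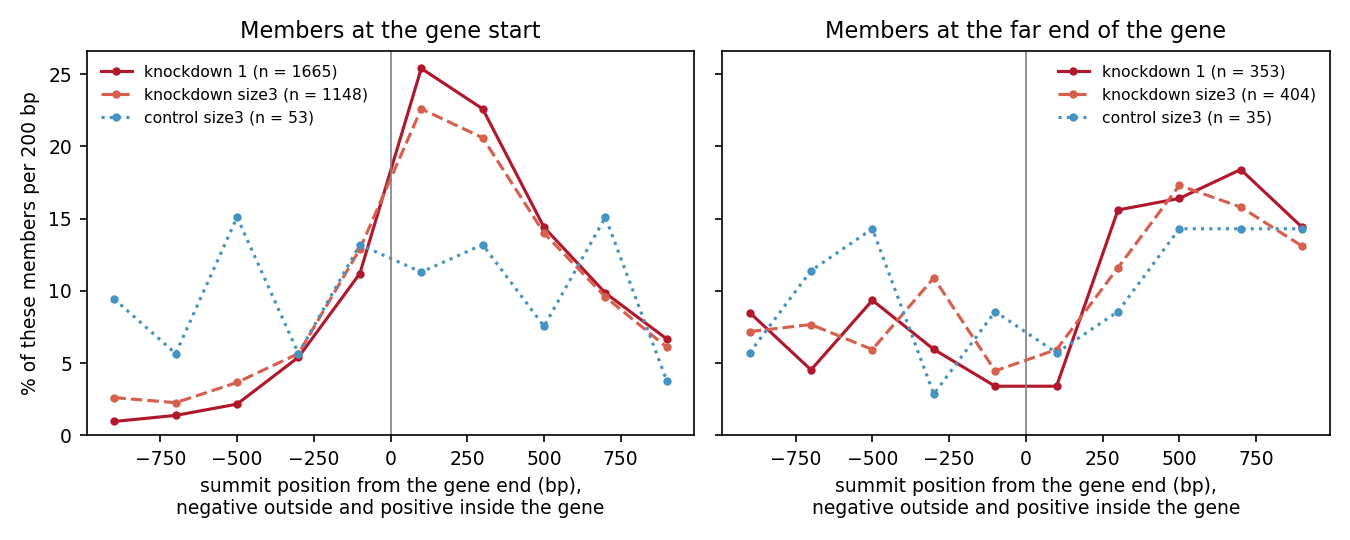
Position of the summit from the gene start (left) or from the far end (right), in bp, as the percent of these members per bin of 200 bp, for knockdown 1, knockdown size3 and control size3. In both knockdown libraries the curve at the start peaks in the first 200 bp inside the gene, at 25.4% in knockdown 1. At the far end it is flatter, with a dip within 200 bp of that end.

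The start took a larger share among stronger peaks in knockdown 1 and knockdown size3. The deposited score of a peak is 10 times minus log10 of its p-value. In knockdown 1 the start held 75.9% of members with scores of 50 to 59, 81.4% at 60 to 79, 86.2% at 80 to 99 and 92.3% at 100 or more. In knockdown size3 the same classes gave 68.4%, 75.1%, 75.6% and 91.0%. In knockdown 2 the order was the other way over few members, with 15 of 30 at the start at scores of 50 to 59 (50%) and 3 of 16 at 60 to 79 (18.8%). In control size3 it was 33 of 58 (56.9%) and 18 of 25 (72%), and in control 1 it was 20% in both classes. The top class held 461 members in knockdown 1 and 172 in knockdown size3. Narrow members of knockdown 1 were unlike the rest: of those under 700 bp, 42.6% lay at the start, against 84.7% at 700 to under 1500 bp and 85.5% at 1500 bp or more.

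Long genes had members more often in knockdown 1 and knockdown size3. The median length of genes with a member was 29983 bp in knockdown 1, 19134 bp in knockdown 2 and 24191 bp in knockdown size3, against 33973 bp in control 1 and 17862 bp in control size3, with 17491 bp over all genes. In knockdown 1 a member was found at 5.73% of genes under 5 kb, 10.4% at 5 to 20 kb, 14.8% at 20 to 100 kb and 21.5% of longer ones. In knockdown size3 the shares were 5.67%, 8.85%, 10.4% and 13.2%. Knockdown 2, with 0.263%, 0.337%, 0.372% and 0.259%, and control size3, with 0.394%, 0.659%, 0.537% and 0.519%, showed no such order. Control 1, over only 21 genes, had 0.0657%, 0.0767%, 0.138% and 0.130%, which is higher in the 2 classes of longer genes. A window was lost where it overlapped that of a neighbouring gene, and how this loss varied with gene length was not tested.

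Members of knockdown 1 and knockdown size3 were wider and held more reads than other peaks of the same lists under 3000 bp. The median width was 1423 bp for members and 855 bp for other peaks in knockdown 1, and 839 bp and 631 bp in knockdown size3. The other libraries showed little difference, with 358 bp for members and 359 bp for other peaks in knockdown 2, 701 bp and 731 bp in control 1, and 690.5 bp and 647 bp in control size3. The median number of reads was 92 in members and 37 in other peaks in knockdown 1, and 23 and 16 in knockdown size3. In knockdown 2 it was 9 in both sets, in control 1 it was 27 in members and 28 in others, and in control size3 it was 17 and 16. Per kb of peak, members of knockdown 1 held 62.0 reads and other peaks 43.6, while in knockdown size3 they held 27.1 and 26.5. Over the 5 libraries the mean log2 ratio of members to others was 0.24 for width (two-sided exact sign-flip permutation test, p = 0.250) and 0.11 for reads per kb (p = 0.375 by the same exact test), each with adjusted p = 0.375. Leaving out knockdown 1 gave 0.11 for width and 0.01 for reads per kb.

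The fold enrichment over input, the authors' value for each peak, ran the other way. Its median was 4.09 in members and 5.37 in other peaks of knockdown 1, 13 and 15.6 in knockdown 2, and 7.24 and 8.23 in knockdown size3. In both control libraries with members the medians were equal, at 5.35 in control 1 and 8.33 in control size3. The mean log2 ratio was -0.17, and the members lay lower in 3 of 5 libraries (two-sided exact sign-flip permutation test, p = 0.250, adjusted p = 0.375). The false discovery rate, from swapping immunoprecipitate and input, separated the libraries sharply. It was at most 5% for 2526 of the members of knockdown 1 (97.8%) and 1245 of those of knockdown size3 (63.2%). Of the other peaks, 99.7% reached that limit in knockdown 1 and 57.0% in knockdown size3. No member of knockdown 2, control 1 or control size3 reached that limit, and their median rates were 100%, 100% and 85.7%.

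**Figure D3:**
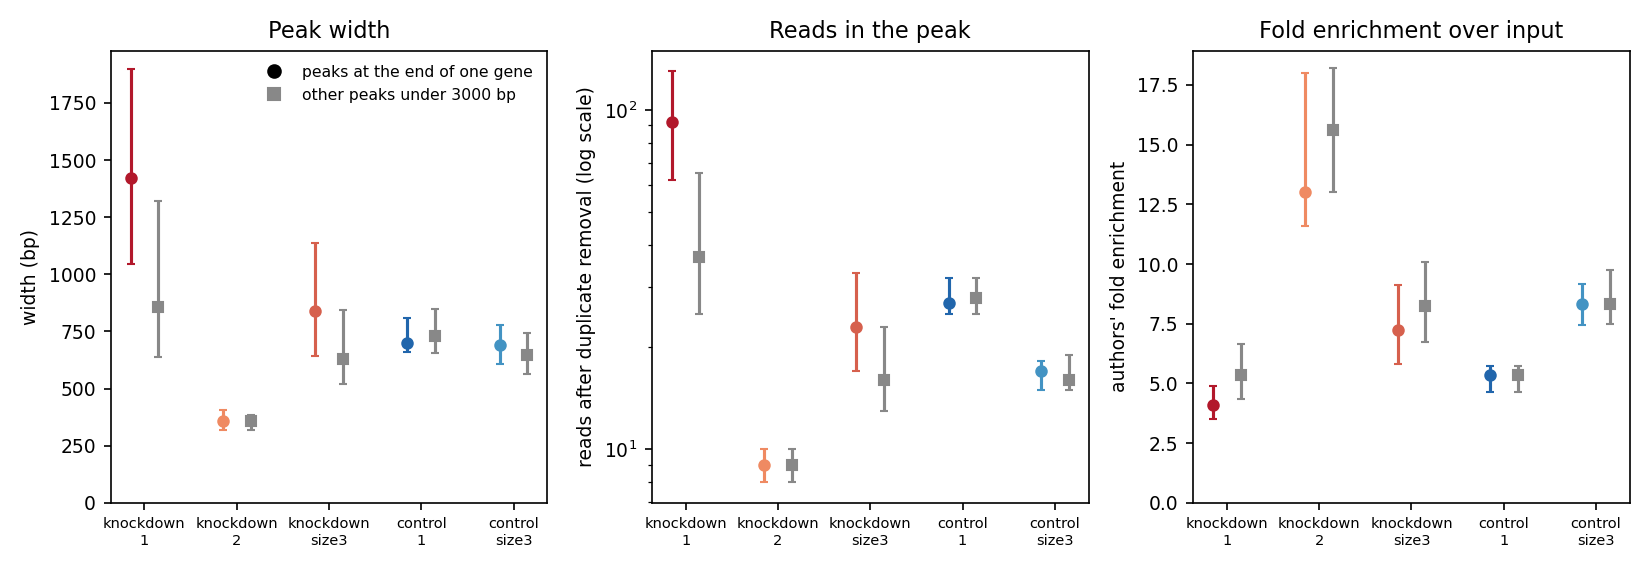
Medians (points) with quartiles (lines) of width in bp, reads per peak on a log axis and the authors' fold enrichment, for members (coloured circles) and other peaks under 3000 bp (grey squares) in the 5 libraries with members. In knockdown 1 members are wider and hold more reads than other peaks, with a lower fold.

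In each of the 5 libraries with members, members recurred in other libraries more often than other peaks did. A peak recurred if it overlapped a peak of another library by at least 1 bp. In knockdown 1 this held for 15.8% of members and 7.02% of other peaks, in knockdown 2 for 10.4% and 2.91%, and in knockdown size3 for 26.8% and 10.1%. In control 1 it held for 9.52% of members and 7.95% of other peaks, and in control size3 for 18.8% and 7.17%. The members' share was higher in 5 of 5 libraries, by 9.24 points on average (two-sided exact sign-flip permutation test, p = 0.0625, the smallest that 5 libraries can give). An overlap counts in both of its libraries, so these 5 values are not independent. The mean difference was 2.87 points without knockdown 1 and 3.28 points without knockdown size3. Among peaks of 500 to under 1500 bp only, a choice made after the data were seen, it was 11.2 points. Start members recurred in 16.9% of cases and far-end members in 10.8% in knockdown 1, and in 29.1% and 17.3% in knockdown size3.

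Knockdown 1 and knockdown size3 had 436 genes in common, which is 17.3% of the genes of knockdown 1 and 23.0% of those of knockdown size3. The 17.3% compares with the 9.17% of all genes that had a member in knockdown size3. The 23.0% compares with the 12.2% of all genes that had one in knockdown 1. At 359 of the 436 genes both libraries had a member at the same end, at 352 the peaks overlapped, and the median offset of their summits was 182 bp. Control size3 shared 21 genes with knockdown 1 (18.8% of its own) and 15 with knockdown size3 (13.4%), beside the same 12.2% and 9.17% of all genes. Knockdown 2 shared 9 of its 67 genes with knockdown 1 (13.4%), near the 12.2% of all genes, and only 2 of the 9 had overlapping peaks. No gene was shared between control 1, with 21 genes, and control size3, which had a member at only 0.542% of all genes. These lists are too short for that absence to be read.

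The 9 genes with members in 3 libraries were Ccdc136, Fkbp9, Hipk3, Map1a, Nptx2, Rab11b, Rims2, Stc2 and Theg. Map1a encodes a microtubule-associated protein of neurons. Its peak in knockdown 1 (chr2:121288775-121290467) held 88 reads at 3.59-fold enrichment, with the summit 88 bp before the start. In knockdown size3 it held 16 reads at 11.5-fold with the summit 235 bp inside, and in control size3 14 reads at 7.99-fold, 458 bp inside. The summit of knockdown 1 fell within the printed promoter and the other 2 downstream of it, and the control peak carried a false discovery rate of 85.0%. Stc2, which encodes the secreted glycoprotein stanniocalcin 2, had the summit inside its start in each: at 475 bp in knockdown 1 (156 reads) and 697 bp in knockdown size3 (30 reads), against 784 bp in control size3 (19 reads). Nptx2, a secreted pentraxin of synapses, held 153 reads in knockdown 1 and 74 in knockdown size3, against 25 in control size3, and its start was not in the table.

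Sharing a gene did not always mean sharing a site. Fkbp9, an endoplasmic reticulum prolyl isomerase, had its summit 150 bp inside the start in knockdown 1 (85 reads) and 24 bp before it in knockdown size3 (26 reads). In control size3 the summit lay beyond the far end by 620 bp (14 reads). Ccdc136 likewise had the summit 28 bp inside the start in knockdown 1 (219 reads) and 224 bp inside in knockdown size3 (32 reads), against 993 bp beyond the far end in control size3 (17 reads). The kinase gene Hipk3 had its summit 291 bp inside the start in knockdown 1 (137 reads), 686 bp before it in knockdown 2 (9 reads) and 510 bp inside in knockdown size3 (18 reads). Rab11b, a small GTPase of recycling endosomes, had summits 591 bp inside the start in knockdown 1 and 726 bp inside in knockdown size3, whereas the one in knockdown 2 lay 421 bp beyond the far end. Fndc3b was shared by knockdown 2 (8 reads) and control 1 (25 reads) with summits 70 bp apart, both beyond its far end and both at a false discovery rate of 100%.

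The members with the highest folds differed between the libraries. In knockdown size3 they were Ndfip1, an adaptor of Nedd4 ubiquitin ligases (21.95-fold, 26 reads), Fbxw7, the substrate receptor of an SCF ubiquitin ligase (20.8-fold, 33 reads) and Kif11, a mitotic kinesin (18.9-fold, 33 reads). Their false discovery rates were 7.55%, 66.7% and 9.09%, all above 5%. In knockdown 1 the highest folds were at 2610001J05Rik (10.7-fold, 24 reads), Tsga13 (9.85-fold, 35 reads) and Zmynd11 (9.57-fold, 21 reads), with rates of 1.7%, 1.53% and 1.53%. Knockdown 2 reached 28.6-fold at 1700071K01Rik with only 12 reads. Control 1 reached 7.14-fold at the interferon-induced gene Ifit3b with 51 reads, and control size3 10.8-fold at Acbd6 with 18 reads. The most reads were held by Fbxl14, Lemd3 and Ptprm in knockdown 1 (321, 316 and 300), by Hjurp, Fzr1 and Wnt7b in knockdown size3 (125, 103 and 93) and by Pacsin1, Rims2 and Prrt4 in knockdown 2 (33, 27 and 26). Those of the controls were Ifit3b, Tmem267 and Slco1c1 in control 1 (51, 46 and 36) and Psapl1, Rest and Ubr7 in control size3 (30, 27 and 25). Fbxl14 in knockdown 1 and Hjurp in knockdown size3 had false discovery rates of 28.1% and 5.54%. Those of Lemd3 and Ptprm in knockdown 1 and of Fzr1 and Wnt7b in knockdown size3 were under 5%.

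Promoters at which a member lay at the start were rich in CG in knockdown 1 and knockdown size3. The promoters of such genes had a median of 7.67 CG dinucleotides per 100 bases in knockdown 1, 7 in knockdown size3 and 8.50 for the 252 genes with a start member in both, against 4.67 over all 16457 promoters. Start members of knockdown 2 had 4.33 over only 18 promoters, below all promoters, and those of control size3 had 6 over 53, above them. Genes with a member at the far end had 5.33 in knockdown 1, 5.67 in knockdown 2 (34 promoters) and 6 in knockdown size3. In the controls these far-end values were 4.33 in control 1 (14 promoters) and 7 in control size3 (35 promoters). The value of control size3 equalled that of the start members of knockdown size3. The share of genes with a start member in knockdown 1 was 3.28% of those with at most 2 CG dinucleotides per 100 bases. It was 9.98% at over 2 to 4, 11.7% at over 4 to 6, 12.1% at over 6 to 8 and 17.5% above 8. In knockdown size3 the same classes gave 2.71%, 6.83%, 8.42%, 8.98% and 10.5%. Far-end members followed CG content less, from 1.73% in the lowest to 2.55% in the highest class in knockdown 1. In knockdown size3 they went from 1.69% to 2.59%, with the largest share, 3.54%, at over 6 to 8. Start members of control size3 lay between 0.229% and 0.432% in all classes. The base composition of the peaks themselves and the recovery of CG-rich DNA during amplification were not analysed here.

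**Figure D4:**
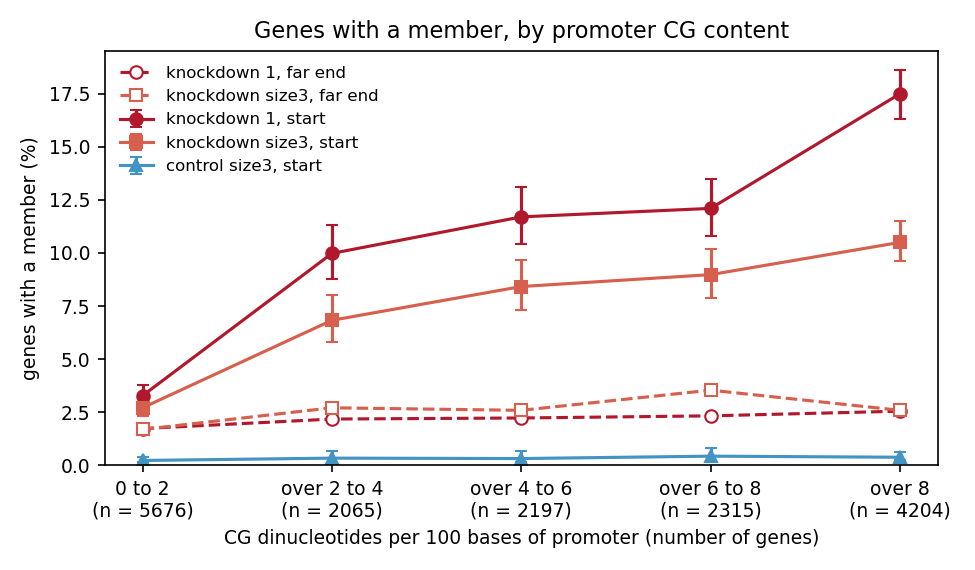
Percent of genes of known start that had a member at the start (filled symbols, 95% Wilson intervals) or at the far end (open symbols), by CG dinucleotides per 100 bases of promoter. Start members of knockdown 1 rise across the classes to 17.5% and those of knockdown size3 to 10.5%, while far-end members stay under 4%.

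Short motifs differed along with CG content. They were searched on both strands, and sets overlap where genes are shared. The GC box GGGCGG was found in 67.8% of promoters with a start member in knockdown 1, 65.4% in knockdown size3 and 72.6% of those with one in both, against 47.3% of all promoters. The TATA box TATAAA was found in 6.13% and 8.86% of those promoters in knockdown 1 and knockdown size3, against 13.5% of all. The E2F-type site TTGGCGC was found in 4.75% and 5.31%, against 3.24%, and TTCGCGC in 2.53% and 3.45%, against 2.16%. The E-box CACGTG was found in 9.62% and 9.03%, against 7.97%, and the general E-box CANNTG, which takes in CACGTG and CAGCTG, in 63.3% and 62.4%, against 68.4%. CAGCTG alone was found in 17.4% and 15.9%, against 15.2%. The Tcf/Lef motif CTTTGAT was found in 1.92% and 1.68%, against 3.33%, the CCAAT box in 34.5% and 36.9%, against 39.1%, and TGACGT in 10.5% and 9.74%, against 8.82%. In these start-member promoters, motifs of G and C were more frequent and those rich in A and T less frequent than in all promoters. Other sets leaned the same way. GGGCGG was found in 59% of promoters with a far-end member in knockdown size3, 53.5% in knockdown 1 and 52.8% of start-member promoters of control size3. TATAAA was found in 9.75%, 13.0% and 7.55% of these sets. The 18 start-member promoters of knockdown 2 went the other way, with 44.4% and 16.7%. These shares carry no test, and the absence of a motif from this window says nothing about a factor elsewhere.

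Genes of 26 families chosen by symbol were counted, and their shares are set beside the 12.2% of all genes in knockdown 1 and the 9.17% in knockdown size3. Developmental families together had a member at 57 of 251 genes in knockdown 1 (22.7%), 1 in knockdown 2 (0.398%) and 33 in knockdown size3 (13.1%), against 1 in control 1 (0.398%) and 2 in control size3 (0.797%). Broadly used families had one at 175 of 1393 genes in knockdown 1 (12.6%) and 136 in knockdown size3 (9.76%), close to the share of all genes. Tissue-restricted families had one at 97 of 2238 genes in knockdown 1 (4.33%) and 68 in knockdown size3 (3.04%). Olfactory, vomeronasal and defensin genes made up 1529 of these 2238 genes. They had a member at only 10 genes in knockdown 1 (0.654%) and 12 in knockdown size3 (0.785%), so the low class share rests largely on them. Among members with a score of at least 100, the share of developmental genes was 3.59 times that of all genes in knockdown 1, with 20 genes, and 3.85 times in knockdown size3, with 8 genes. Over all members these ratios were 1.87 in knockdown 1 and 1.43 in knockdown size3, and with a window of 500 bp they were 1.53 and 1.11. In knockdown size3 the 95% Wilson interval of the ratio at 500 bp, 0.712 to 1.72, spans 1.

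Hox genes, which set position along the body axis, had members at 15 of 39 genes in knockdown 1 (38.5%) and 5 in knockdown size3 (12.8%), and 3 of these genes were in both libraries. The 15 came from all 4 clusters. Hox genes lie side by side, so their peaks are not independent. Hoxd11 had members at both ends in knockdown 1, with 97 reads at 5.93-fold, 357 bp inside the start, and 61 reads at 4.89-fold, 588 bp beyond the far end. Hoxa2 held 82 reads at 5.88-fold, and Hoxb9 held 176 reads at 4.91-fold. Hoxb2 had members in both libraries, with 93 reads in knockdown 1 and 25 and 18 in 2 peaks of knockdown size3, and so was Hoxc10, with 97 and 32 reads.

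Forkhead and Sox genes, which encode transcription factors of cell fate, had members at 13 of 59 genes in knockdown 1 (22.0%) and 12 in knockdown size3 (20.3%), with 4 in both. Sox9, needed for cartilage formation, held 151 reads at 4.31-fold in knockdown 1, with the summit 245 bp inside an end. Sox5, its partner in cartilage, held 129 reads at 7.12-fold, 653 bp inside its start. Sox2, a pluripotency factor, had 2 members in knockdown size3 with 25 and 13 reads, and Foxo1, a factor restrained by insulin signalling, had 57 reads at 9.45-fold. Foxn2 had members in both libraries, with 256 reads in knockdown 1 and 24 in knockdown size3, and the summits lay 221 bp and 202 bp outside the same end. Neither Sox9 nor Sox5 had a member in knockdown size3.

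Genes of the BMP and TGF-beta pathway, which induces bone, had members at 14 of 49 genes in knockdown 1 (28.6%) and 6 in knockdown size3 (12.2%). Of the ligands, Bmp2 held 108 reads at 2.83-fold in knockdown 1, and Gdf6 held 124 reads in knockdown 1 and 18 in knockdown size3. Of the receptors, Bmpr1a held 142 reads at 2.56-fold in knockdown 1. Bmpr1b held 108 reads in knockdown 1, with the summit 209 bp inside the start, and 12 in knockdown size3, 104 bp inside. The signal transducers Smad1 (87 reads) and Smad9 (148 reads) had members in knockdown 1 at 1 bp and 163 bp inside their starts. The antagonist noggin, Nog, held 169 reads in knockdown 1 and 16 in knockdown 2, where its false discovery rate was 100%. The count includes Bmp2k, a kinase that matched by its symbol only.

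Genes of the Wnt pathway had members at 9 of 60 genes in knockdown 1 (15%) and 6 in knockdown size3 (10%), near the shares of all genes. Ctnnb1, which encodes beta-catenin, had members in both, with 87 reads at 3.43-fold in knockdown 1 and 19 at 12.6-fold in knockdown size3, and the summits lay 135 bp and 164 bp before the start. Sfrp1, a secreted Wnt antagonist, held 147 and 20 reads, 519 bp and 476 bp inside the same end. The co-receptor Lrp6 held 134 reads at 4.54-fold and the kinase gene Gsk3b 146 reads at 2.95-fold in knockdown 1. Lef1, a nuclear partner of beta-catenin, held 27 reads at 8.65-fold in knockdown size3. The control libraries had members at Rspo3 in control 1 (27 reads) and at Lgr5 and Wnt5b in control size3 (17 and 24 reads). None of these 3 had one in a knockdown library. Of all genes, 12.2% had one in knockdown 1, 0.324% in knockdown 2 and 9.17% in knockdown size3, so 3 genes are too few to read this absence.

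Genes of bone matrix and bone regulation had members at 2 of 27 genes in knockdown 1 (7.41%) and 3 in knockdown size3 (11.1%), none in both. These counts are too small to tell from the share of all genes in either library. In knockdown 1 the genes were Dlx6 (181 reads) and Tnfsf11, which encodes the osteoclast-inducing ligand RANKL (56 reads, 323 bp inside the start). In knockdown size3 they were Tnfrsf11b, which encodes its decoy receptor osteoprotegerin (22 reads), the osteocalcin-related gene Bglap3 (11 reads) and Runx2, the central transcription factor of osteoblasts (23 reads). The Runx2 summit lay 950 bp inside its far end, not at its start. The false discovery rates were 3.95% at Tnfrsf11b, 6.95% at Bglap3 and 6.47% at Runx2. E2F and class 1 helix-loop-helix genes had members at 4 of 17 in knockdown 1 (23.5%), namely E2f2, E2f5, Tcf4 and Tfdp1, and at E2f5 in knockdown size3 (5.88%). The E2f5 peaks overlapped, with 110 reads in knockdown 1 and 28 in knockdown size3.

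Single broadly used families lay on both sides of the share of all genes. Their counts were small and carry no interval, so this spread is not read as a difference between families. Small Rab GTPases, switches of membrane traffic, had members at 10 of 65 genes in knockdown 1 (15.4%) and 13 in knockdown size3 (20%), with 4 in both. Rab7, of late endosomes, held 122 reads in knockdown 1 and 17 in knockdown size3. Genes of ubiquitin conjugation and removal had members at 35 of 237 in knockdown 1 (14.8%) and 29 in knockdown size3 (12.2%). RNA helicases and splicing proteins differed between the libraries, with 20 of 118 genes (16.9%) in knockdown 1 and 7 (5.93%) in knockdown size3. Cytosolic ribosomal proteins had 10 of 94 (10.6%) and 9 (9.57%), and the 4 genes in both included Rps6. Histone modifiers had 11 of 73 (15.1%) and 8 (11%), with Setd2, the methylase of histone H3 lysine 36, at 138 and 22 reads. Kinesins, dyneins and tubulins, the motors and tracks of the microtubule network, had 5 of 73 (6.85%) and 8 (11%). Respiratory chain subunits had 6 of 93 (6.45%) in each of these 2 libraries, and translation factors 5 of 68 (7.35%) in each. Proteasome subunits had 5 of 39 (12.8%) in knockdown 1 and 1 (2.56%) in knockdown size3.

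Olfactory receptor genes were rarely members, at 9 of 1104 genes in knockdown 1 (0.815%), 5 in knockdown 2 (0.453%) and 10 in knockdown size3 (0.906%), against 3 in control 1 (0.272%). None of the 354 vomeronasal receptor genes had a member in any list. Olfactory, vomeronasal and defensin genes together had a member at 6 of 1529 genes in knockdown 2 (0.392%) and 3 in control 1 (0.196%), where all genes had 0.324% and 0.102%, counts too small to tell from the share of all genes. Solute carriers had members at 54 of 376 genes in knockdown 1 (14.4%) and 30 in knockdown size3 (7.98%), and potassium channels at 15 of 92 (16.3%) and 11 (12%), so not every tissue-restricted family was low. Genes known only by predicted or RIKEN names had 68 of 1356 (5.01%) in knockdown 1 and 49 (3.61%) in knockdown size3.

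**Figure D5:**
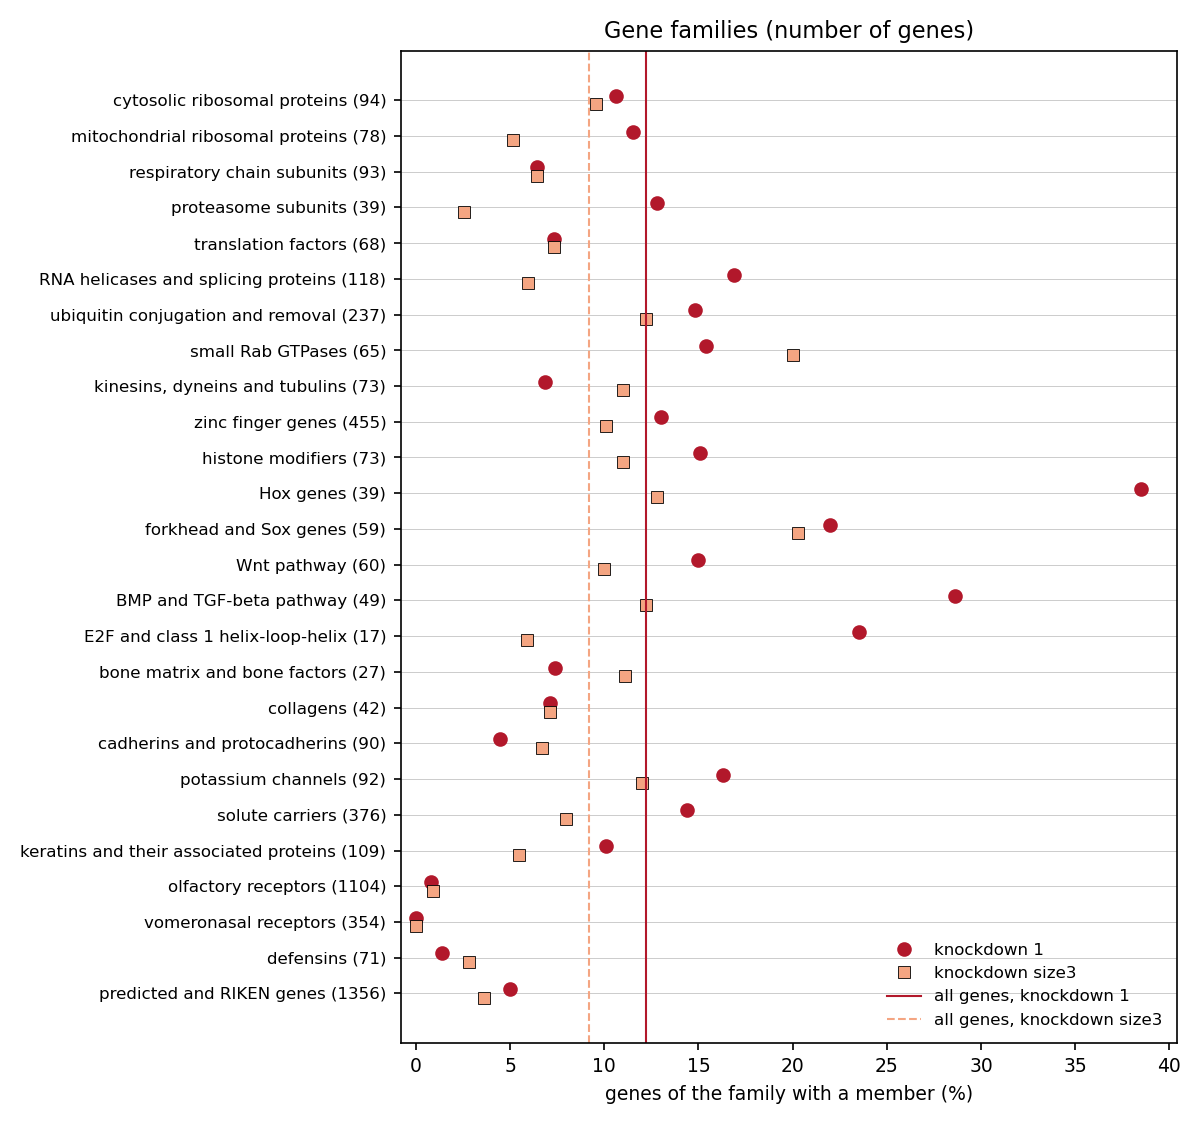
Percent of the genes of each family with a member in knockdown 1 (circles) and knockdown size3 (squares), with the number of genes in brackets; vertical lines give the percent over all protein-coding genes, 12.2% and 9.17%. Hox genes reach 38.5% in knockdown 1 and 12.8% in knockdown size3, and olfactory and vomeronasal receptors lie under 1% in both.

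The limits of the rule left out comparable peaks. The widest members were at C1ql1 (2999 bp) and Ccdc142 (2992 bp) in knockdown 1, and a peak at Pgbd5 (3008 bp) was just too wide. The width limit removed 356 peaks at the end of 1 gene in knockdown 1 and 7 in knockdown size3. The farthest summits were at Atp9a and Lzts2, 1000 bp from an end in knockdown size3, and those at Cyfip2 and Fam241b, at 1001 bp, fell outside. A further 641 peaks lay at the ends of 2 or more genes. Those under 3000 bp had a median width of 1547 bp in knockdown 1 and 950 bp in knockdown size3, and 18.3% and 28.0% of them recurred, close to the values of members. Macf1 itself had no member. The nearest was a peak of knockdown 1 (chr4:123685611-123688035, 138 reads, 3.96-fold) whose summit lay 1068 bp inside the upper end of the gene.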

How the data were processed

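DNA of 6 immunoprecipitates with an anti-MACF1 antibody and 6 inputs was sequenced. Per the submitters' processing notes, the tools were cutadapt, Bowtie2 and MACS 1.4.2 and the build GRCm38. Per the file headers, every immunoprecipitate had peaks called against its matching input alone, with a p-value cutoff of 1.00e-05, a band width set to 300 bp and duplicates reduced to 1 read a position. The deposited counts are whole reads per peak after this step. The deposited score is 10 times minus log10 of the p-value, the deposited fold enrichment is a ratio to the local background, and the deposited false discovery rate is in percent. Score and fold belong to 1 peak and were compared only within a list, since they move with depth. Intervals cover counting error only.

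From these, peaks were joined by their summits to the RefSeq gene table of GRCm38.p6, and gene starts were taken from its promoter table, which holds 16457 of the 20665 protein-coding genes of chromosomes 1 to 19. Libraries, not peaks, were the units of the exact permutation tests, and p-values were adjusted by the Benjamini-Hochberg method. Libraries needed at least 5 members for comparisons among members. The genes named were those with members in the most libraries, the 3 highest folds and read counts of each library, up to 2 genes of each family by number of libraries and then fold, and those nearest each limit. Some items that this rule names are left out here. Other developmental genes named in the text were chosen after their values were seen. Families were defined by symbol patterns. One of 27 patterns, for replication histones, matched no gene. The members and lists were chosen with earlier results of these data known. The alternatives were other windows, widths, scores, false discovery rates, overlaps and summaries, genes without predicted names, a replicate block and each library left out. The joins and tests recovered what was planted in simulated data. Python 3.11.15, pandas 2.3.3, numpy 2.4.6 and scipy 1.17.1 were used.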

Additional observations from a re-analysis of the deposited data

How the results depend on the processing

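Of 129 values under alternatives, 116 stayed within the limits set for them, 13 moved and no tested difference changed direction. All 13 concern shares of genes without a test. For a tested difference, the limits were its direction and the side of the significance limit on which its p-value lay. No main p-value passed that limit and few settings could give one that did, so these values could hardly be labelled otherwise. Changes in size, such as the 2.87 to 10.9 points of recurrence given below, did not count as a move. The genes shared by knockdown 1 and knockdown size3, 17.3% of the genes of knockdown 1, were 10.9% with a false discovery rate of at most 5%, 3.27% with a score of at least 100, 21.1% with a 2 kb window and 12.3% with a 500 bp window. As a share of knockdown size3, 23.0%, they were 27.0% with no length limit, 8.77% at that score, 26.4% at 2 kb and 16.8% at 500 bp. At that score 459 genes of knockdown 1 and 171 of knockdown size3 had a member, and 15 were shared. The share of all genes with a member moves with the length of the lists and was not set beside these percentages. Their change is therefore not read as more or less sharing. At a score of at least 100 the ratio to all genes was 1.20 for broadly used genes in knockdown 1, 3.59 and 3.85 for developmental genes in knockdown 1 and knockdown size3, and 0.282 and 0.162 for tissue-restricted genes. Of the 2238 tissue-restricted genes, 1529 are olfactory, vomeronasal and defensin genes. The ratio for broadly used genes, slightly above 1 in both libraries, was 0.972 in knockdown 1 and 0.950 in knockdown size3 with a 2 kb window. The ratio for developmental genes in knockdown size3, 1.43, was 1.11 with a 500 bp window (Wilson interval 0.712 to 1.72), 1.42 at a false discovery rate of at most 5% (0.942 to 2.12) and 1.36 without predicted genes (0.984 to 1.85). The cause was not tested. Leaving out each library in turn gave log2 differences in member number of 3.82 to 7.38, differences in share of 3.74 to 9.08 points and in recurrence of 2.87 to 10.9 points. The fold of members against other peaks, -0.17, gave -0.14 and an exact sign-flip p of 0.0625 with means of log2 values in place of medians. With the label as a replicate block, the difference in number stayed 5.70 (exact p = 0.250 over 3 pairs), that in share 5.68 points (exact p = 0.250) and that in start share was 37.0 points over 2 pairs (exact p = 0.500). The labels do not say that a shared number marks a shared culture, and control 2 held no member to check it with. The share at a false discovery rate of at most 5%, the start share at a score of at least 100, and the start share without control 1 or control size3 were not run, because too few members or libraries remained. Control 2 held 160 and control 1 held 739 autosomal peaks, so their shares are known least precisely.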
